A study of Homo sapiens with 6 samples.

Results

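The enzymes described here are the cytochrome P450s, the UDP-glucuronosyltransferases (UGT), the aldehyde dehydrogenases (ALDH) and the cytosolic sulfotransferases (SULT). Members were all probe sets whose single gene symbol in the platform's annotation begins with CYP and a number (CYP51A1 left out), UGT1A, UGT2A or UGT2B and a number, ALDH and a number, or SULT and a number. This gave 116 of 22215 tested probe sets, which stand for 72 of 11963 genes: 43 P450 genes, 17 ALDH genes, 7 SULT genes and 5 UGT genes. Where a gene had several probe sets, the brightest over the 6 arrays stood for it. The 43 P450 entries include the pseudogenes CYP2A7P1 and CYP2B7P and the read-through locus CYP3A7-CYP3A51P, as the annotation names them.

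The comparison was of 3 arrays with 3. WZR6 is a single clone of NCI-H1975, isolated as clone 6 from cells that had been exposed to rising amounts of WZ4002, and the labels give it as resistant to that drug. The reference cells are the parental NCI-H1975 line, given as sensitive to WZ4002. NCI-H1975 cells are an established line from a human lung adenocarcinoma that carries mutant EGFR, and WZ4002 is an inhibitor of mutant EGFR kinase. Both groups grew exponentially in RPMI with 5% serum before RNA was taken. The labels do not state if WZ4002 was still present then. Because WZR6 is 1 clone, a change that came with resistance and a property of that clone cannot be told apart. The labels do not say whether the 3 samples of a group came from separate cultures, so p-values measure the spread between these samples, which may be technical. In RNA from whole cultures, fewer cells with a transcript and less transcript per cell cannot be told apart.

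P450 enzymes are heme-containing monooxygenases that insert oxygen into drugs, steroids, fatty acids and vitamins, taking electrons from P450 reductase in the endoplasmic reticulum or from ferredoxin in mitochondria. ALDH enzymes oxidise aldehydes to acids, and the UGT and SULT enzymes attach glucuronic acid or sulfate to hydroxyl groups. P450s of the CYP1, CYP2 and CYP3 families and the conjugating enzymes are best known for drug clearance in liver, while CYP1B1, ALDH1A and ALDH3 enzymes are well known in airway epithelium and in lung tumours.

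The regulatory regions of 3 P450 genes are shown for the sequence elements through which retinoic acid and aryl hydrocarbons are known to act, since these genes or their sensors are described below. Each runs from 250 bases before to 50 bases after a transcript start in RefSeq (GRCh38.p14), 5′ to 3′ on the gene's strand. CYP26A1, at chr10:93073643-93073942 (plus strand, the start with most matches of 2 listed), and CYP26B1, at chr2:72147813-72148112 (minus strand), encode enzymes that break down retinoic acid. Capitals mark the hexamer AGGTCA or its variants AGTTCA or GGGTCA or GGTTCA, searched on both strands, which nuclear receptors such as the retinoic acid receptors recognise.
CYP26A1: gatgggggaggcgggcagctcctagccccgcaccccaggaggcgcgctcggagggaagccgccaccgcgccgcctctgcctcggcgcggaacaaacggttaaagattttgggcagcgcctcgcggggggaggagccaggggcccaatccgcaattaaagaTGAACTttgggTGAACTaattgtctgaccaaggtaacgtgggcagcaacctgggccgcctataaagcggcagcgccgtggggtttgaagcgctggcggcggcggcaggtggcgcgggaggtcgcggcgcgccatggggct
CYP26B1: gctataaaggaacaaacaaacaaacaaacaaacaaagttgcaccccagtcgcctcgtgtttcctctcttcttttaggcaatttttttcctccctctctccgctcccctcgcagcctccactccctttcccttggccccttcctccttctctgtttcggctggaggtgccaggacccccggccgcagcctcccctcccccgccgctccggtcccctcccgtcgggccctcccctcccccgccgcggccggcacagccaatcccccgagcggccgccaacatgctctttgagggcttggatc
CYP1A1, at chr15:74725479-74725778 (minus strand), is the classical target of the aryl hydrocarbon receptor. Capitals mark GCGTG, the core of the xenobiotic response element, searched on both strands.
CYP1A1: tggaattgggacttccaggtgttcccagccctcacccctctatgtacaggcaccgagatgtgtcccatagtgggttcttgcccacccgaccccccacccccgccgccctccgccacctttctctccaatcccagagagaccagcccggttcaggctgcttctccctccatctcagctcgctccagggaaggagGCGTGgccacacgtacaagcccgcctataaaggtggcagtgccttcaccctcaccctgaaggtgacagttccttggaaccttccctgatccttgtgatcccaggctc

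The CYP26A1 window held 2 copies of TGAACT, the complement of AGTTCA, from base -90 to -85 and from base -79 to -74 counted from the start. Together they form a direct repeat of AGTTCA on the opposite strand. The CYP26B1 window held 0 of the 4 hexamers, and 38.6% of all windows held at least 1. The CYP1A1 window held GCGTG once, from base -57 to -53, as did 36.5% of all windows at least once. GCGTG is also a form of the core that hypoxia-inducible factors recognise, and a match of letters is not a measured binding site.

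Across the enzymes, a smaller share of genes was called than over the whole array, and more were called lower than higher in WZR6. In limma, 6 of 72 genes rose and 15 fell, so that 29.2% of the enzyme genes were called, against 48% of all genes on the array. Decreases were called for 15 of 72 enzyme genes, a share slightly below the 23.5% of all genes called lower. Increases were called for 6 of 72, a share far below the 24.5% of all genes called higher. The median difference of the 72 genes was -0.02 on the log2 scale, against 0.02 for all genes. With median centring of the arrays 10 enzyme genes rose and 13 fell, so the balance between the directions moved with the scaling.

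Over probe sets, 12 of 116 rose, where 21.6% of all probe sets did, and 21 fell, where 19.5% did. This is 28.4% called, against 41.1% of all probe sets. Without WZR6 replicate 2, 7 probe sets rose and 18 fell. The groups did not overlap for 27 of the 72 genes, against 56.3% of all genes. At a size of at least 2-fold, 4 genes fell and 0 rose, where 3.42% of all genes fell and 1.36% rose by as much. The 4 were CYP24A1, ALDH3B2, ALDH3B1 and ALDH1A3. The differences of the 51 genes not called lay between -0.25 and 0.26, with 95% intervals within -0.66 and 0.62, and 26 of all 72 genes had an unadjusted p under 0.05.

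Many of the enzyme genes were dim. The log2 values of all probe sets had a lower quartile of 5.27 and a median of 7.38, and both group means lay below that quartile for 29 of 72 enzyme genes (40.3%), against 18.7% of all genes. Of these 29 dim genes 1 was called (3.45%), against 8.73% of all genes as dim. Among the 43 enzyme genes with at least 1 group mean above the quartile, 20 were called, 6 higher and 14 lower (46.5%), against 57.1% of all such genes. Detection calls were not part of the deposited table, so which of them exceeded background is unknown.

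**Figure D1:**
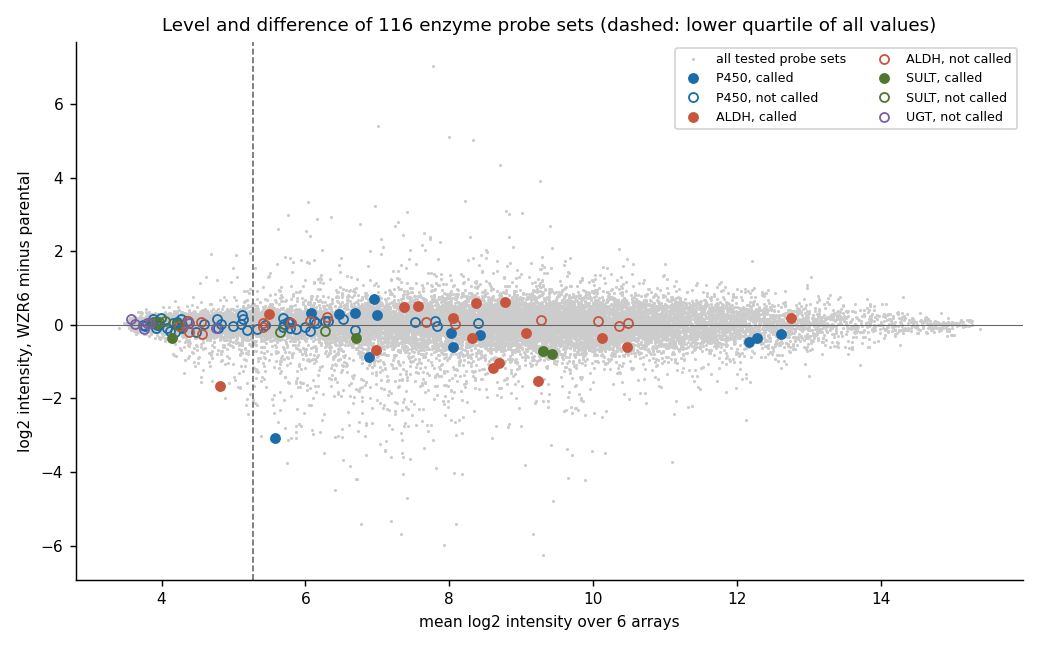
Mean log2 intensity over the 6 arrays (x axis) and the log2 difference of WZR6 minus parental (y axis) for 116 enzyme probe sets, coloured by family, over all 22215 tested probe sets in grey; filled points were called in limma. The 7 UGT probe sets all lie left of the lower quartile of 5.27 (dashed line) and none is filled, while the lowest enzyme point is CYP24A1 at -3.07.

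**Figure D2:**
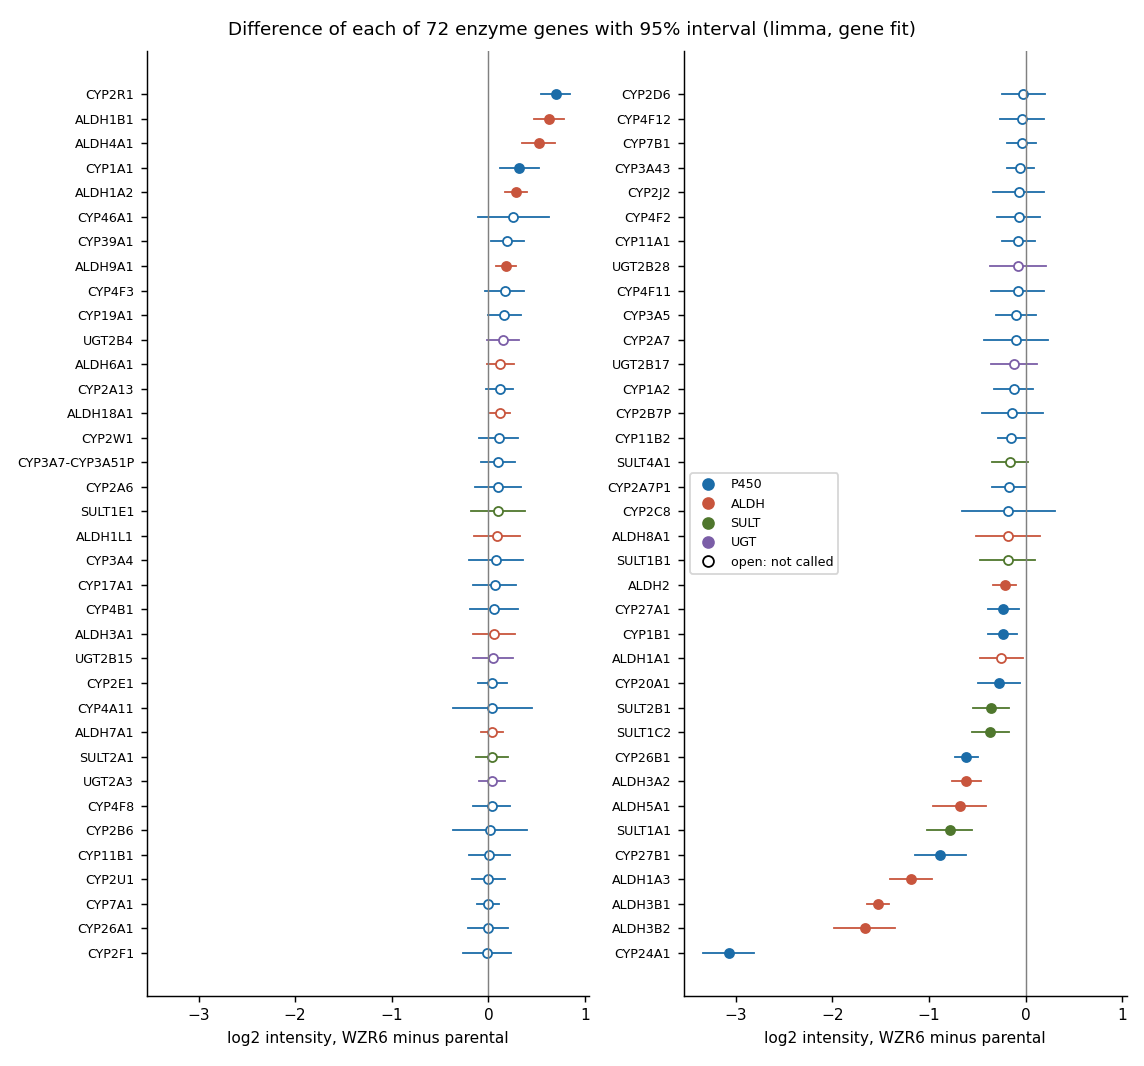
Log2 difference of WZR6 minus parental (x axis) for each of the 72 genes with its 95% interval, ordered from the largest increase at the upper left to the largest decrease at the lower right; filled points were called in limma. The values run from 0.70 for CYP2R1 to -3.07 for CYP24A1, and most open points lie close to 0.

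Of the 3 P450s of vitamin D metabolism 1 rose and 2 fell in limma, on an array where 48% of all genes were called. CYP24A1, the mitochondrial 24-hydroxylase that inactivates vitamin D hormone and is a strongly induced target of the vitamin D receptor, had log2 intensities of 3.91, 4.08 and 4.13 in WZR6 cells, against 7.03, 6.96 and 7.34 in parental cells. The groups lay far apart, and the WZR6 arrays were all below the lower quartile of 5.27. The measured ratio was 8.42-fold lower (95% interval 7.02 to 10.1, adjusted p = 2.52e-06 in limma). Because background is unknown at the level of the WZR6 arrays, this ratio does not fix the fold of the transcript.

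CYP27B1, the 1-alpha-hydroxylase that makes the active hormone, had log2 intensities of 6.43, 6.32 and 6.60 in WZR6 cells, against 7.33, 7.14 and 7.52 in parental cells. The highest WZR6 array stayed below the lowest parental array, and CYP27B1 fell 1.84-fold (1.53 to 2.21, adjusted p = 0.000619). CYP2R1, the microsomal 25-hydroxylase that carries out the first step of activation, went the other way, with 7.24, 7.25 and 7.43 in WZR6 cells, against 6.66, 6.57 and 6.60 in parental cells. It rose 1.62-fold (1.46 to 1.8, adjusted p = 0.000127), with no overlap of the groups. The vitamin D receptor gene VDR, named here after its values were seen, fell 1.26-fold (1.17 to 1.37, adjusted p = 0.00107), and its partner RXRA rose 1.24-fold (1.16 to 1.34, adjusted p = 0.000844). With all values below the array median of 7.38 set to that median, none of the 3 P450s was called, with differences of 0 for CYP24A1, -0.05 for CYP27B1 and 0.02 for CYP2R1.

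Of 6 enzymes that make or remove retinoic acid or related aldehydes, 1 rose, 2 fell and 3 were not called, where 48% of all genes were called. ALDH1A3, a retinal dehydrogenase that makes retinoic acid, had log2 intensities of 8.13, 7.82 and 8.09 in WZR6 cells, against 9.21, 9.10 and 9.27 in parental cells. It fell 2.27-fold (1.95 to 2.64, adjusted p = 6.55e-05 in limma). The related ALDH1A2 had 5.67, 5.64 and 5.61 in WZR6 cells, against 5.37, 5.39 and 5.28 in parental cells, a small rise of 1.22-fold (1.13 to 1.32, adjusted p = 0.0023) without overlap, on a probe set close to the lower quartile. A second ALDH1A2 probe set differed by 0.10 and was not called, and with values below the array median set to it the difference was 0.

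ALDH1A1, the retinal dehydrogenase best known as a stem cell and drug resistance marker, had 4.63, 4.32 and 4.36 in WZR6 cells, against 4.74, 4.59 and 4.73 in parental cells. These values overlapped, lay below the lower quartile in both groups and differed by -0.25 (-0.47 to -0.03, adjusted p = 0.0623). Without WZR6 replicate 1 the difference was -0.35 with an adjusted p of 0.00808.

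On the catabolic side, CYP26B1 had 7.75, 7.80 and 7.69 in WZR6 cells, against 8.32, 8.33 and 8.42 in parental cells. Every WZR6 array was lower, and CYP26B1 fell 1.53-fold (1.40 to 1.66, adjusted p = 9.07e-05). CYP26A1, whose window above holds the paired hexamers, had 5.42, 5.51 and 5.38 in WZR6 cells, against 5.54, 5.52 and 5.26 in parental cells. The groups overlapped, and the difference was -0.004 with a 95% interval of -0.21 to 0.20 (adjusted p = 0.975).

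Of 16 measured retinoid genes outside the 4 families, 2 rose, 3 fell and 11 were not called, or 31.2% called beside 48% of all genes. CRABP2, which carries retinoic acid to its receptor, fell 2.52-fold (2.32 to 2.74), and DHRS3, which turns retinal back to retinol, fell 1.88-fold (1.72 to 2.05). STRA6, the membrane receptor that takes up retinol, rose 1.83-fold (1.63 to 2.06). By limma their adjusted p-values were 3.26e-06 for CRABP2, 1.9e-05 for DHRS3 and 8.29e-05 for STRA6. DHRS3 fell against its chromosomal neighbours, whose median difference was 0.34. The receptor genes RARA, RARB and RARG were not called, with 95% intervals of -0.32 to 0.07, -0.17 to 0.29 and -0.18 to 0.18.

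**Figure D3:**
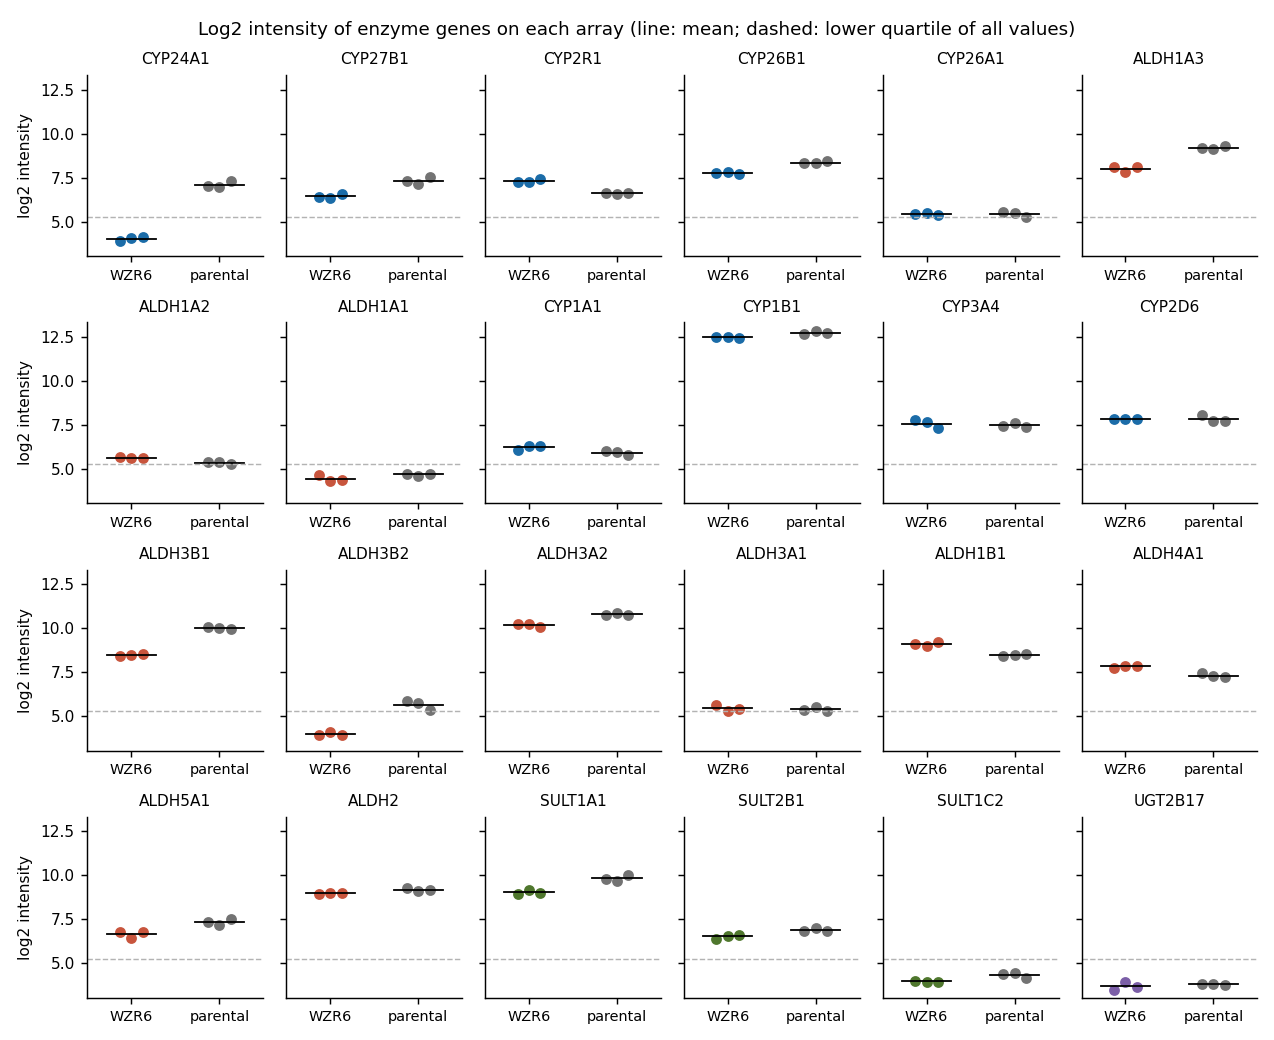
Log2 intensity (y axis) of 24 enzyme genes on each of the 3 WZR6 arrays (coloured, left) and 3 parental arrays (grey, right), with the group mean as a line and the lower quartile of all values, 5.27, dashed. CYP24A1 and ALDH3B2 drop below the dashed line in WZR6, CYP2R1, ALDH1B1 and ALDH4A1 stand higher in WZR6, and CYP26A1, CYP3A4, CYP2D6 and ALDH3A1 overlap.

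In the CYP1 family, which oxidises polycyclic aromatic hydrocarbons and estrogens, differences were small. CYP1A1 had log2 intensities of 6.10, 6.29 and 6.32 in WZR6 cells, against 6.02, 5.94 and 5.78 in parental cells. It rose 1.25-fold (1.08 to 1.44, adjusted p = 0.0193 in limma), and the lowest WZR6 array stood just above the highest parental array. The call was lost without WZR6 replicate 2 (difference 0.29, adjusted p = 0.0626), without WZR6 replicate 3 (0.28, adjusted p = 0.0648), with the replicate number as a block (adjusted p = 0.0552) and with the floor at the array median, where the difference was 0. It was kept in 10 of 14 alternatives.

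CYP1B1 had 12.51, 12.51 and 12.45 in WZR6 cells, against 12.64, 12.85 and 12.69 in parental cells. The groups did not overlap and CYP1B1 fell 1.18-fold (1.06 to 1.31, adjusted p = 0.0196). Without WZR6 replicate 3 the difference was -0.22 and was not called (adjusted p = 0.0625). In the fit over probe sets, 2 further bright probe sets of CYP1B1 differed by -0.34 and -0.46 and were called, and the remaining one differed by 0.12 and was not. CYP1A2 differed by -0.12 and was not called.

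The sensor of this family, named after its values were seen, moved with a stretch of neighbouring genes. AHR, the aryl hydrocarbon receptor, fell 1.22-fold (1.10 to 1.35, adjusted p = 0.0068), in a neighbourhood whose median difference was -0.58. Its partner ARNT rose 1.2-fold (1.10 to 1.32, adjusted p = 0.00691), with a neighbour median of 0.05. Among 15 measured sensors of xenobiotics and lipids, 4 rose, 4 fell and 7 were not called, or 53.3% called beside 48% of all genes. The largest differences were those of PPARG, a fatty acid sensor that fell 1.91-fold (1.77 to 2.06, adjusted p = 8.48e-06), PPARA, which rose 1.59-fold (1.35 to 1.88, adjusted p = 0.00133) on a dim probe set, and RXRB, which rose 1.35-fold (1.23 to 1.48, adjusted p = 0.000667) in a neighbourhood with a median of 0.31.

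The P450s best known for drug clearance showed no called gene. Of 15 genes of the CYP2 and CYP3 families, 0 were called in limma, where 48% of all genes were called. An unadjusted p under 0.05 was found for 1, and the differences of the 15 lay between -0.18 and 0.12. Their 95% intervals stayed within -0.66 and 0.40. CYP3A4, the main hepatic drug oxidase, had log2 intensities of 7.75, 7.64 and 7.32 in WZR6 cells, against 7.44, 7.62 and 7.4 in parental cells. CYP2D6, which oxidises many basic drugs, had 7.85, 7.81 and 7.81 in WZR6 cells, against 8.07, 7.74 and 7.72 in parental cells. CYP3A5 had 4.29, 4.35 and 4.05 in WZR6 cells, against 4.29, 4.41 and 4.28 in parental cells. The groups overlapped for all 3 genes, and the differences were 0.08 (-0.20 to 0.36), -0.02 (-0.25 to 0.20) and -0.10 (-0.30 to 0.11).

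Both means lay below the lower quartile for 7 of these 15 genes. Over all genes, 8.73% of those as dim and 57.1% of those with a group mean above the quartile were called. The 4 CYP3 genes share 1 neighbourhood, with a median difference of -0.37, and CYP2W1 lies among neighbours with a median of -0.56. The differences of these 5 genes were between -0.10 and 0.11. For 3 of the 4 CYP3 genes both means lay below the lower quartile, where background is unknown and a fall could be hidden. At the level of probe sets, 3 of 21 in the CYP2 family rose, where 21.6% of all probe sets rose. They were 1 of CYP2D6 (difference 0.30) and 2 of CYP2E1, an ethanol-oxidising P450 (0.26 and 0.34). The brightest probe sets of both genes were not called. CYP2A, CYP2B and CYP3A genes have close paralogues, and cross-hybridisation makes assignments within those subfamilies uncertain.

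P450s of fatty acids, steroids and bile acids gave 1 called gene. Among 9 genes of fatty acid and eicosanoid oxidation, mainly the CYP4 family, and 5 genes of steroid hormone synthesis, 0 were called in limma. Over the whole array 48% of genes were called. An unadjusted p under 0.05 was found for 1, and the 95% intervals of these genes lay between -0.36 and 0.45. Both means lay below the lower quartile for 6 of the 9 and 3 of the 5, and 8.73% of all genes as dim were called. Of 5 genes of cholesterol and bile acid oxidation 1 was called, and both means lay below the quartile for 3. It was CYP27A1, the mitochondrial sterol 27-hydroxylase, named after its value was seen, which had 7.91, 7.86 and 7.97 in WZR6 cells, against 8.21, 8.21 and 8.01 in parental cells. It fell 1.17-fold (1.05 to 1.31, adjusted p = 0.0267), and the highest WZR6 array lay just under the lowest parental array. The call of CYP27A1 was lost without WZR6 replicate 1 or 2 and without parental replicate 1 or 2. Median centring, the replicate number as a block and the floor at the array median ended it as well. CYP20A1, a P450 without an assigned substrate, had 8.23, 8.29 and 8.35 in WZR6 cells, against 8.49, 8.44 and 8.76 in parental cells, and fell 1.21-fold (1.04 to 1.40, adjusted p = 0.0404). The call of CYP20A1 was lost without WZR6 replicate 1, 2 or 3 and without parental replicate 1, with differences of -0.24, -0.27, -0.31 and -0.31 and adjusted p-values of 0.117, 0.0941, 0.0603 and 0.0573. It was also lost with median centring (-0.23, adjusted p = 0.0715) and with the floor at the array median (adjusted p = 0.111), and was kept in 9 of 15 alternatives.

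Of 8 measured electron donors and other partners of the P450s 5 rose and 3 fell, where 24.5% of all genes rose and 23.5% fell. For 0 of the 8 did both means lie below the lower quartile, and 57.1% of all genes with a group mean above it were called. POR, the reductase that serves every microsomal P450, had 8.39, 8.51 and 8.38 in WZR6 cells, against 9.17, 9.13 and 9.06 in parental cells. It fell 1.61-fold (1.47 to 1.77, adjusted p = 7.57e-05 in limma), in a neighbourhood with a median of -0.31. CYB5R4, a cytochrome b5 reductase, rose 1.64-fold (1.5 to 1.79, adjusted p = 5.74e-05), and PGRMC2, a heme-binding membrane protein that associates with P450s, rose 1.54-fold (1.3 to 1.83, adjusted p = 0.00223).

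The ALDH family held the highest share of called genes, 10 of 17 (58.8%), with 4 higher and 6 lower, beside 48% over all genes. It was also the brightest family. Both means lay below the lower quartile for 11.8% of ALDH genes, against 44.2% of P450, 42.9% of SULT and 100% of UGT genes. Among all genes with a group mean above that quartile 57.1% were called, a share that leaves dim genes out. The 2 ALDH genes with both means below it were not called, so the ALDH share without them is above 58.8%. The ALDH3 subfamily, which oxidises fatty and aromatic aldehydes, fell for 3 of 4 genes. ALDH3B1 had log2 intensities of 8.43, 8.45 and 8.52 in WZR6 cells, against 10.04, 9.999 and 9.95 in parental cells. The groups were tightly clustered and far apart, and ALDH3B1 fell 2.89-fold (2.67 to 3.12, adjusted p = 1.37e-06 in limma). Its second probe set differed by -1.05 and was called too.

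ALDH3B2, a close paralogue of ALDH3B1 on the same chromosome 11, had 3.90, 4.11 and 3.95 in WZR6 cells, against 5.87, 5.72 and 5.36 in parental cells. WZR6 lay below the lower quartile on all 3 arrays and the measured ratio of ALDH3B2 was 3.17-fold lower (2.55 to 3.94, adjusted p = 7.08e-05). As for CYP24A1, background at that level is unknown; the difference was 0 with the floor at the array median and -0.84 with the gene's probe sets averaged. Its other probe set was dim in both groups, differed by -0.02 and was not called. The measured neighbours of ALDH3B1 and ALDH3B2 had median differences of -0.59 and -0.44, with 4 and 5 of 30 above 0. Both genes thus lie in a stretch that was mostly lower. ALDH3B1 and the brighter probe set of ALDH3B2 fell further than these medians.

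ALDH3A2, the fatty aldehyde dehydrogenase of the endoplasmic reticulum, had 10.21, 10.21 and 10.07 in WZR6 cells, against 10.74, 10.87 and 10.72 in parental cells. It fell 1.53-fold (1.38 to 1.69, adjusted p = 0.000224), and its 3 probe sets were all called lower. ALDH3A1, a corneal and tumour-associated aldehyde dehydrogenase on the same chromosome 17, had 5.61, 5.30 and 5.40 in WZR6 cells, against 5.34, 5.49 and 5.31 in parental cells. These values overlapped, and the difference was 0.05 (-0.16 to 0.27, adjusted p = 0.666).

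Among 9 ALDH genes of mitochondrial, folate and amino acid metabolism, 3 rose, 2 fell and 4 were not called, or 55.6% called beside 48% of all genes. ALDH1B1, a mitochondrial acetaldehyde dehydrogenase, had 9.07, 9.0 and 9.21 in WZR6 cells, against 8.41, 8.48 and 8.51 in parental cells. It rose 1.54-fold (1.39 to 1.72, adjusted p = 0.000242), and both of its probe sets were called. ALDH4A1, which completes proline breakdown, had 7.76, 7.85 and 7.86 in WZR6 cells, against 7.44, 7.25 and 7.20 in parental cells. It rose 1.44-fold (1.28 to 1.62, adjusted p = 0.00089), again on both probe sets.

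ALDH9A1, which acts in carnitine synthesis, had 12.87, 12.81 and 12.84 in WZR6 cells, against 12.62, 12.70 and 12.65 in parental cells. It rose 1.13-fold (1.05 to 1.22, adjusted p = 0.013), and was not called without WZR6 replicate 1 (difference 0.17, adjusted p = 0.0509). ALDH5A1, the succinate semialdehyde dehydrogenase, had 6.75, 6.44 and 6.75 in WZR6 cells, against 7.32, 7.17 and 7.49 in parental cells. It fell 1.60-fold (1.33 to 1.94, adjusted p = 0.00233), while a second, dimmer probe set differed by 0.06 and was not called, and with the floor at the array median the difference was -0.04. ALDH2, the main mitochondrial acetaldehyde dehydrogenase, had 8.93, 8.98 and 8.96 in WZR6 cells, against 9.25, 9.12 and 9.15 in parental cells, a fall of 1.16-fold (1.07 to 1.26, adjusted p = 0.01).

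Sulfotransferases fell for 3 of 7 genes and rose for 0, or 42.9% called beside 48% of all genes. SULT1A1, the main phenol sulfotransferase, had log2 intensities of 8.95, 9.17 and 9.0 in WZR6 cells, against 9.79, 9.68 and 10.01 in parental cells. All WZR6 arrays were lower, and SULT1A1 fell 1.72-fold (1.46 to 2.03, adjusted p = 6e-04 in limma). Both of its probe sets are of the type _x_at, which can detect several transcripts. Of 3 probe sets that the annotation shares among the near-identical SULT1A3 and SULT1A4 and their read-through loci, 2 fell as well, with differences of -0.78 and -0.70. Which SULT1A gene carried the difference is therefore uncertain.

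SULT2B1, which sulfates cholesterol, had 6.38, 6.56 and 6.62 in WZR6 cells, against 6.84, 6.98 and 6.80 in parental cells. It fell 1.28-fold (1.12 to 1.46, adjusted p = 0.00879), and with the floor at the array median the difference was 0. SULT1C2 fell 1.29-fold (1.13 to 1.46, adjusted p = 0.00761) on a probe set with both means below the lower quartile, at 3.99, 3.94 and 3.96 in WZR6 cells, against 4.41, 4.42 and 4.15 in parental cells. Its other 2 probe sets differed by 0.07 each and were not called, and the mean over its probe sets differed by -0.07 (adjusted p = 0.54).

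Genes of donor supply, sulfatases and a glucuronidase were measured beside them. Of these 9 genes, not all of which act on the products of SULT or UGT enzymes, 3 rose, 5 fell and 1 was not called. Over all genes, 24.5% rose and 23.5% fell. PAPSS1, which makes the sulfate donor PAPS, rose 1.35-fold (1.25 to 1.46, adjusted p = 0.000257 in limma). The brighter PAPSS2, the other PAPS synthase gene, named after its value was seen, fell 1.13-fold (1.05 to 1.21, adjusted p = 0.0121). STS, steroid sulfatase, fell 1.38-fold (1.23 to 1.54, adjusted p = 0.00131), and GUSB, the lysosomal beta-glucuronidase, fell 1.37-fold (1.28 to 1.48, adjusted p = 0.00018). GUSB lies among neighbours with a median of -0.52.

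No UGT gene was called. All 5 measured genes, UGT2A3, UGT2B4, UGT2B15, UGT2B17 and UGT2B28, had both means below the lower quartile, where 8.73% of all genes as dim were called. For 0 of the 5 was the unadjusted p under 0.05 in limma. Their 95% intervals lay between -0.37 and 0.32. UGT1A genes share most of their exons, and all 7 of their probe sets carry several gene symbols, so none is a member. Those 7 differed by 0.01 to 0.26, with adjusted p-values of 0.0622 or more. Both group means lay above the lower quartile for 4 of the 7, and 2 had unadjusted p-values of 0.0267 and 0.03, with 95% intervals of 0.03 to 0.35 and 0.03 to 0.49.

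**Figure D4:**
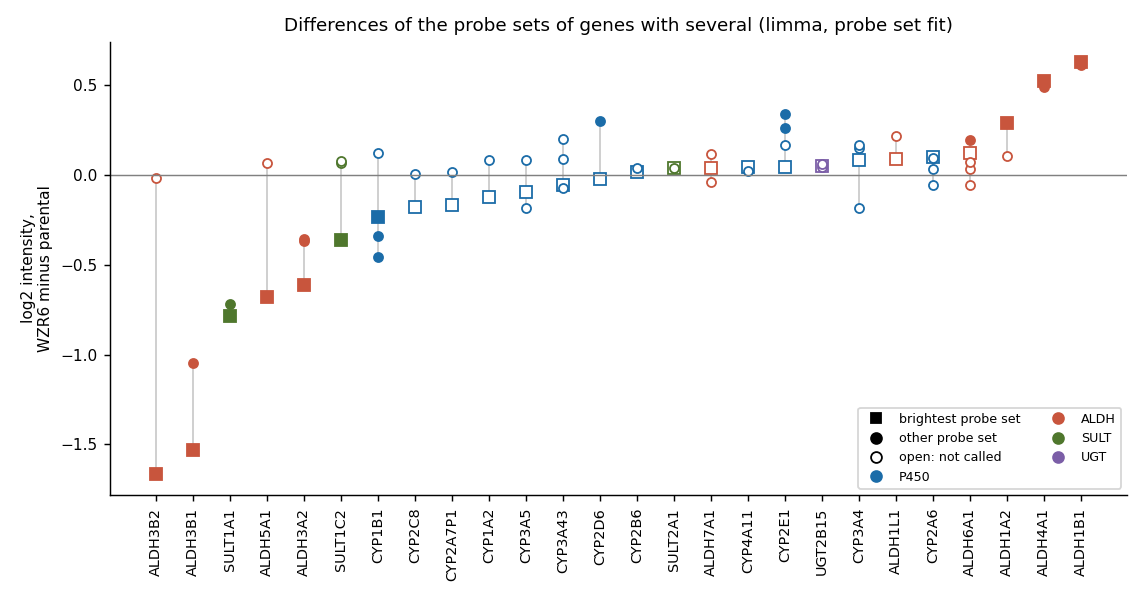
Log2 difference of WZR6 minus parental (y axis) for every probe set of the 26 genes that have several, with the brightest as a square and the others as circles; filled symbols were called in limma. Both probe sets of ALDH3B1, ALDH1B1, ALDH4A1 and SULT1A1 and all 3 of ALDH3A2 are filled on the same side of 0, whereas ALDH3B2, ALDH5A1 and SULT1C2 each have open symbols near 0.

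Probe sets of the same gene share their transcript and their arrays and are not independent. Of the 26 genes with several, 18 had the same result on all of them, 8 had called and uncalled ones, and 0 had calls in opposite directions. Among the 18, only ALDH3B1, ALDH1B1, ALDH4A1, SULT1A1 and ALDH3A2 were called, and the others were uncalled on all their probe sets. The widest spread within a gene was 1.65, for ALDH3B2.

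Each enzyme gene was also set beside its chromosomal neighbours. For each enzyme gene the median difference of up to 15 measured genes on each side in RefSeq order was taken, other enzyme genes left out. For the 21 called genes this median lay between -0.59 and 0.13, and it was larger than 0.3 in size for 2 of them, ALDH3B1 and ALDH3B2. It had the same sign as the gene's own difference for 14 of 21. Some of these medians lay close to 0, and no share over all called genes was computed beside this count. For CYP24A1, ALDH1A3 and CYP27B1, 3 of the larger decreases, the neighbours' medians were 0.07, 0.12 and -0.06. Copy number was not measured here.

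**Figure D5:**
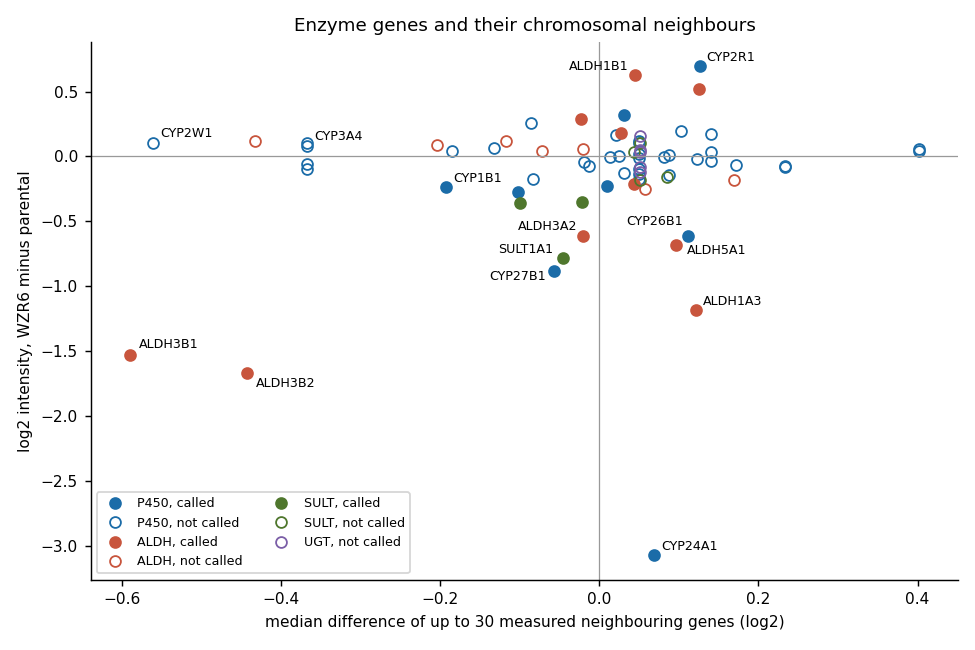
Log2 difference of WZR6 minus parental of each enzyme gene (y axis) against the median difference of its measured chromosomal neighbours (x axis); filled points were called in limma. ALDH3B1 and ALDH3B2 stand apart at the left with neighbour medians of -0.59 and -0.44, while CYP24A1 lies at 0.07 and CYP2W1 and CYP3A4 stay near 0 on the y axis.

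Lists of cell type markers gave the setting of these values. Of 8 carcinoma epithelial markers 7 fell and 1 was not called, and their summed intensity was 26735 to 27392 in WZR6 arrays, against 47626 to 48224 in parental arrays. The simple epithelial keratin KRT18 was not called, whereas EPCAM and CDH1 had log2 means of 6.17 and 6.32 in WZR6 cells, against 12.43 and 12.01 in parental cells. Of 8 hepatocyte markers 1 rose and 1 fell, with a summed intensity of 3019 to 3279 in WZR6 arrays, against 2327 to 2704 in parental arrays, and ALB, APOA1 and FGB were below the lower quartile in both groups. The brightest hepatocyte marker, SERPINA1, had log2 means of 11.45 in WZR6 cells and 11.10 in parental cells and rose, while TTR, HP and AHSG lay above the quartile and were not called, and APOH fell. Of 6 measured leukocyte markers of 8 listed, 2 fell, with sums of 362 to 382 in WZR6 arrays, against 594 to 627 in parental arrays, and PTPRC and CD2 were below the quartile in both groups. CD14 and LCP1 fell, with log2 means of 7.49 and 6.01 in WZR6 cells, against 8.45 and 6.95 in parental cells, and CD3D and CD79A lay above the quartile and were not called. Of 8 fibroblast and endothelial markers 2 rose and 2 fell, with sums of 1389 to 1425 in WZR6 arrays, against 2286 to 2476 in parental arrays, and PDGFRA and LUM were below the quartile in both groups. COL1A1 and COL1A2 fell, with log2 means of 6.60 and 9.73 in WZR6 cells, against 9.60 and 10.29 in parental cells. PDGFRB and CDH5 rose, with 7.21 and 6.35 in WZR6 cells, against 6.55 and 5.47 in parental cells, and DCN and PECAM1 were not called. The part of these marker differences in the enzyme differences was not tested.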

How the data were processed

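RNA of 6 samples was measured on oligonucleotide arrays, 1 per sample. The authors deposited 1 linear intensity per probe set. The submitters' processing notes name RMA, without a version or settings. These intensities ranged from 9.87 to 44570, with array medians of 163.2 to 171.1, and 0 pairs of arrays were identical. Log2 was taken without a pseudocount or a further normalization. Of 22277 probe sets, 62 controls were left out. The annotation gave 1 gene for 19064 probe sets, several for 1043 and none for 2108; 19052 matched RefSeq (GRCh38.p14) by Entrez identifier.

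The groups were compared by limma 3.58.1 (R 4.3.3, two-sided), over 22215 probe sets and over 11963 genes, with Benjamini-Hochberg adjustment over all of them and calls at an adjusted p under 0.05. Unless the probe set fit is named, values are those of the gene fit. Differences are log2 of WZR6 minus parental; folds are 2 to the power of their size. The fit was tested on simulated data with independent noise per gene and far fewer changed genes than were called here. That test checked the code and does not bear on the calls. The number of arrays, 3 per group, limits precision.

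Enzymes and lists were chosen with earlier results of these data known. Named genes were the 12 largest non-overlapping changes per direction, 16 chosen enzymes, any gene with opposite calls and the 3 largest of each linked list; UGT2B7 was not measured. CYP1A2, CYP2E1, CYP2W1, RARA, RARB, RARG, PTGIS, TBXAS1 and the markers named lie outside this rule and were chosen after their values were seen. Promoter windows came from RefSeq for 50 of 72 genes. Figures used matplotlib 3.10.9 in Python 3.11.15. Alternatives are given in the closing section.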

Additional observations from a re-analysis of the deposited data

How the results depend on the processing

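Of 21 called enzyme genes, 21 were also called under cyclic loess, quantile normalization and a variance trend, 20 with probe sets averaged per gene, 19 under median centring and 18 to 21 when any 1 array was left out. With the replicate number as a block 19 were kept, and with the floor at the median 10. Without _x_at and _s_at probe sets 13 were kept, with 51 enzyme genes tested. Among probe sets above the median level 12 were kept, with 20 enzyme genes tested. The counts that moved by more than 1.5 times were as follows. Median centring gave 10 enzyme genes higher. Probe sets above the median level, with fewer tested, gave 6 enzyme probe sets higher and 9 genes lower. A floor at the median gave 7 probe sets higher, 12 lower and 7 genes lower; it sets dim genes equal, and ended 13 calls among named genes, those of CYP24A1, CYP27B1, CYP2R1, CYP1A1, CYP20A1, ALDH1A2, ALDH3B2, ALDH5A1, SULT1C2, SULT2B1, PPARA, MAOB and XDH. Without _x_at and _s_at probe sets, with fewer tested, 6 enzyme probe sets were higher and 8 lower, 9 enzyme genes were lower and 15 linked genes were lower, and SULT1C2 turned to 0.0656 and was not called. Leaving out 1 array gave 7 to 10 enzyme probe sets higher. Same-numbered samples of the groups correlated in their deviations with r of -0.01, 0.12 and 0.23, so the numbers were not taken as pairs; with the replicate number as a block, 7 enzyme genes were higher and 15 lower, CYP1A1 had an adjusted p of 0.0552 and ALDH1A1 one of 0.0334.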

Other observations

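Other drug-metabolizing enzymes outside the 4 families were measured from a list of 26, of which 23 had a gene on the array; 5 rose, 10 fell and 8 were not called in limma, where 24.5% of all genes rose and 23.5% fell. The largest decrease was that of PON3, a lactonase of the paraoxonase family, with log2 intensities of 5.24, 5.60 and 5.37 in WZR6 cells, against 8.75, 8.81 and 8.84 in parental cells, or 10.6-fold (95% interval 9.08 to 12.3, adjusted p = 7.75e-07). Its neighbours had a median difference of -0.31. The WZR6 values of PON3 lay near the lower quartile of 5.27, where background is unknown. With values under the array median set to it, PON3 differed by -1.42 and was still called (adjusted p = 3.46e-05 in limma). MAOB, a mitochondrial monoamine oxidase, fell 2.63-fold (2.35 to 2.95, adjusted p = 9.66e-06), and XDH, xanthine dehydrogenase, fell 2.34-fold (2.09 to 2.62, adjusted p = 1.54e-05). The calls of MAOB and XDH ended when values under the array median were set to it. MAOA, the neighbouring paralogue of MAOB, named after its value was seen, rose by 0.74 ± 0.05 on the log2 scale (SE, adjusted p = 3.59e-05). PTGIS and TBXAS1, P450 enzymes of prostanoid synthesis whose symbols lie outside the rule, differed by -0.12 and 0.05 and were not called.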
